A study of Mus musculus with 12 samples.

Results

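The results concern 10 genes grouped under the Wnt, R-spondin and follistatin pathways of the early ovary, which were Wnt4, Rspo1, Fst, Bmp2, Lef1, Lgr5, Nr0b1, Runx1, Msx1 and Sp5. They were chosen by name, and their probes were found through the transcript accession that the array gives each probe. All 10 had a probe, 11 probes in all because Runx1 had 2, and all 10 entered the test among 19178 features, of which 13264 were named genes. Every one of these probes was well above background on all 12 arrays and none was saturated.

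The arrays measured RNA of mouse gonadal somatic cells at embryonic day 11.5, the stage at which the XY gonad commits to a testis. There were 4 groups of 3 embryos, female and male embryos that were either heterozygous or homozygous for a mutant allele of Jmjd1a. Jmjd1a, named Kdm3a on current maps, encodes an enzyme that removes methyl groups from lysine 9 of histone H3. The heterozygous embryos are called controls and the homozygous ones mutants, so the controls also carry 1 mutant allele. The cells of every group came from the gonads and the adjoining mesonephroi of a single embryo, and were pulled out with magnetic beads through CD271, a surface protein that a transgene driven by Nr5a1 places on gonadal somatic cells. The sources used here do not name litters. Each array held a single embryo, so the p-values measure the spread between single embryos within groups. Slide differences enter that spread in mutant males and control females only, since each other group lay on a single array slide.

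In the XX gonad, the secreted signals WNT4 and RSPO1 stabilise beta-catenin in supporting cell precursors. The pathway opposes the transcription factor SOX9 and the secreted signal FGF9, which promote the testis. RSPO1 acts through LGR receptors, beta-catenin acts on DNA through LEF1 and its relatives, and SP5 is a direct target and feedback regulator of the same pathway. Follistatin, encoded by Fst, binds and blocks activin and lies downstream of WNT4 and BMP2 in the ovary. The comparison of mutant with control males asks whether genes of this set rise in XY cells that lack the demethylase at the time when the testis programme is set. Lgr5 and Nr0b1 had the higher mean in control males, by 0.58 and 0.11. A rise was therefore not a move towards the control female mean for every member.

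Promoter sequence is shown for the 2 secreted signals that start the pathway and for the 2 members whose windows held the binding motif of TCF and LEF proteins, the DNA-binding partners of beta-catenin. RefSeq promoter entries of GRCm38.p6 matched 7 of the 10 genes, with 11 transcription starts; Fst, Bmp2 and Lgr5 are named without a sequence. The window was the 250 bases before each start. Capitals mark matches, on either strand, to CTTTGAA and its variants, which were CTTTGAT and then CTTTGTA and lastly CTTTGTT. No match overlapped another.
Wnt4, chr4:137277385-137277634, plus strand: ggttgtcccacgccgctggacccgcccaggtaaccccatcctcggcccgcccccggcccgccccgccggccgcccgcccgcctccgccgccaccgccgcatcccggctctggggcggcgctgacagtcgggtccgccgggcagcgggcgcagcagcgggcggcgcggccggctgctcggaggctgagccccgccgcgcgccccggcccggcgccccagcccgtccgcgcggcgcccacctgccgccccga
Rspo1, chr4:124986180-124986429, plus strand: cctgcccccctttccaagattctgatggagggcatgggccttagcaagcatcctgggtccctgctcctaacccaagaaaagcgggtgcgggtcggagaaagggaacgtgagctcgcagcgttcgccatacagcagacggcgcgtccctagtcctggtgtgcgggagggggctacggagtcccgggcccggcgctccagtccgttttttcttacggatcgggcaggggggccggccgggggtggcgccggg
Lef1, the fourth start, chr3:131156044-131156293, plus strand: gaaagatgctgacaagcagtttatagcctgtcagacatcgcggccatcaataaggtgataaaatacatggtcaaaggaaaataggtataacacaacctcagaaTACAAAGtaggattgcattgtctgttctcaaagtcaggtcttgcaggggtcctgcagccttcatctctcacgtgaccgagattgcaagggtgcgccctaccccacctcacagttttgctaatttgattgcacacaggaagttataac
Sp5, chr2:70474673-70474922, plus strand: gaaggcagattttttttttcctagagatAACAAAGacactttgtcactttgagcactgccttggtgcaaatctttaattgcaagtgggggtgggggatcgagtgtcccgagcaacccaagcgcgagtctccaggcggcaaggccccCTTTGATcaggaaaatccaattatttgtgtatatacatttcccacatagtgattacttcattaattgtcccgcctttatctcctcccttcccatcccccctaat
Sp5 held 2 matches, CTTTGTT on the minus strand 222 bases and CTTTGAT on the plus strand 104 bases before the start. The fourth of the Lef1 starts held 1, CTTTGTA on the minus strand 147 bases before it, and the other 3 Lef1 starts held none. Of all 32851 promoter windows of this length 14.8% held at least 1 match, and 2 of the 11 windows of these genes did. The motif AAGGTCA of NR5A1, the nuclear receptor of gonadal somatic cells, was in 0 of the 11 windows and in 4.08% of all windows. The windows also differed in composition, with a G and C content of 85.2% before Wnt4, 66.8% before Rspo1 and 46.0% before Sp5.

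Levels are log2 values of the processed signal after subtraction of each array's own 75th percentile, so 0 is the signal at that percentile and a difference of 1 is 2-fold. They compare arrays for 1 probe and not 1 probe with another. Those percentiles ran from 142.9 to 220.7 in control males and from 268.3 to 299.5 in mutant females, so brightness moved with group. The arrays lay on 3 slides. The control males shared slide 1 with mutant male 1. Control females 1 and 2 shared slide 2 with mutant males 2 and 3. The mutant females shared slide 3 with control female 3. Control males were therefore never on a slide with female arrays. With slide as a term in a fit, mutant male 1 is the only mutant in the male comparison. Control female 3 is then the only control in the female one. Kdm3a, whose level checks the genotype labels, was 2.27 lower in mutant than control females (SE 0.14, limma adjusted p = 4.16e-05) and 1.95 lower in mutant than control males (SE 0.14, limma adjusted p = 9.00e-05), and the sources used here do not say where its probe lies relative to the mutated part of the gene. All 9 gonadal somatic markers were measured in every group, 7 of them well above background on all 12 arrays, and the 2 with the highest mean were Wt1 and Lhx9. RNA of blood cells was measured as well, with the summed signal of 8 erythroid markers running from 20.3 to 724 times the 75th percentile. In RNA of pooled cells, fewer cells of a type and less RNA per cell cannot be told apart. For most of the 10 genes control female 3 and mutant female 2 stood high among the 12 arrays, so medians that rest on them are given with and without both.

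In males, none of the 10 genes passed the test for a mutant effect, while 0.469% of all features did. At an unadjusted limma p under 0.05 the count was 0 of 10 against 11.9% of all features, and in 0 of 10 were the 3 mutant males apart from the 3 control males, against 20.4% of all features, when each gene was represented by its brightest probe. The differences ran from -0.40 for Lgr5 to 0.44 for Lef1, with a median of 0.25 against -0.05 over all features, and 7 of the 10 were above 0 against 44.6% of all features. The median was 0.05 with normexp background correction and 0.15 with array brightness as a covariate. The smallest limma adjusted p was 0.43, for Msx1. The same arrays did show the testis genes lower: Sox9 fell by 1.05 (SE 0.18, limma adjusted p = 0.036) and Fgf9 fell by 1.14 (SE 0.16, limma adjusted p = 0.015) in mutant males. In this fit, which has no slide term, the unadjusted 95% intervals of 8 of the 10 genes lay below a 2-fold rise. Those of Bmp2 and Sp5 reached 1.07 and 1.18 on the log2 scale, and all 10 lay above a 2-fold fall. These intervals do not cover differences between slides, and mutant males 2 and 3 were on another slide than the control males. On slide 1, mutant male 1 alone differed from the control males by -0.71 for Fst to 0.53 for Rspo1.

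**Figure D1:**
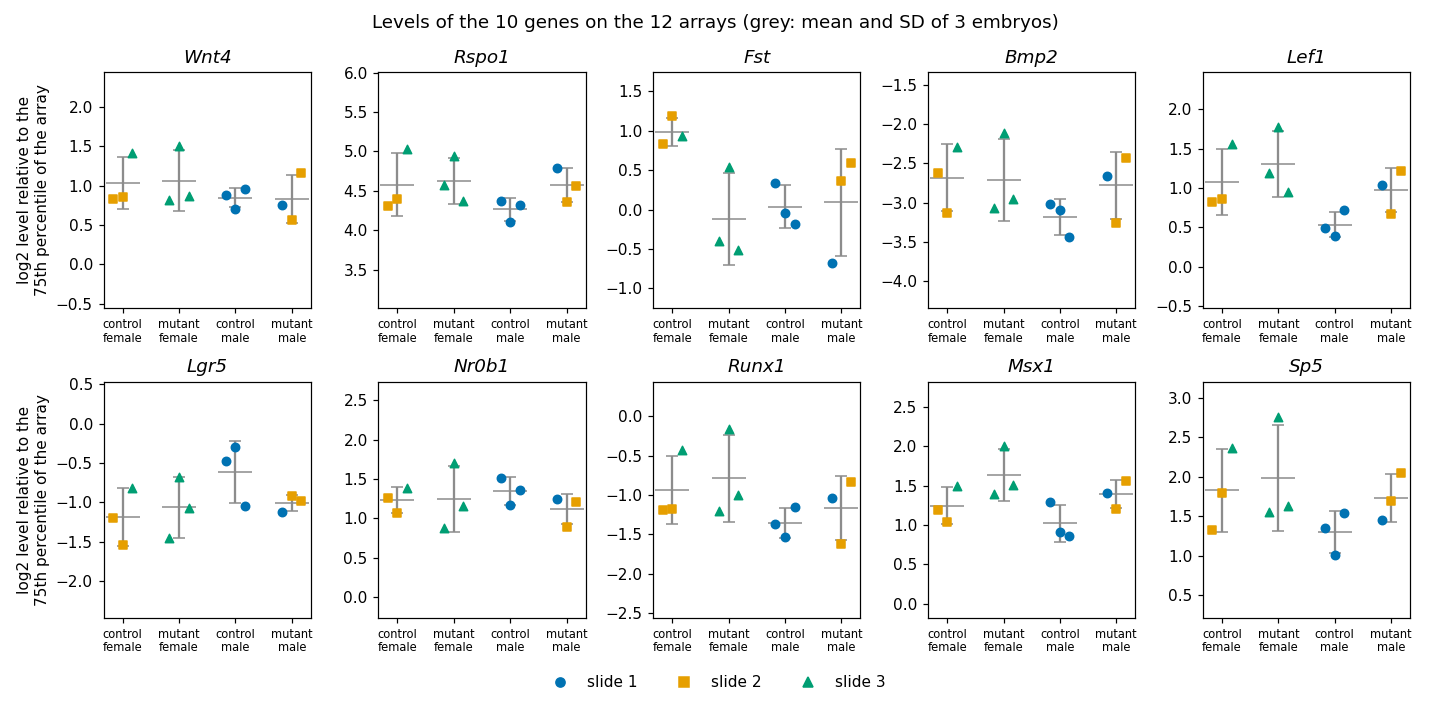
Each panel plots 1 gene on the 12 arrays, as log2 level relative to the 75th percentile of the array, by group; points are single embryos coloured and shaped by slide, and grey bars are the mean and SD of 3 embryos. All panels span 3 log2 units, and Fst is the gene in which the 3 control females lie above all 9 other arrays.

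Wnt4, the Wnt ligand needed for ovary development and for blocking testis vessel formation, stood at 0.88, 0.71 and 0.95 in the control males. In the mutant males it stood at 0.75, 0.56 and 1.16. The lowest and the highest of these 6 arrays were both mutants, so the groups overlapped throughout. The difference was -0.02 ± 0.23 (SE, limma adjusted p = 0.96), with an interval from -0.53 to 0.48. Control females stood at 0.84, 0.86 and 1.42 and mutant females at 0.82, 1.51 and 0.87, so 1 embryo of each female group was high and the other 2 lay within the range of the males. The female mutant effect was 0.03 ± 0.23 and the difference of control males from control females was -0.19 ± 0.23, both within 1 standard error of 0.

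Rspo1, the secreted activator that acts with Wnt4, was the member with the smallest gap between mutant males and control females. The control males stood at 4.37, 4.10 and 4.32. The mutant males stood at 4.79, 4.36 and 4.56, and 1 of them lay inside the control range. The difference was 0.31 ± 0.21 (SE, limma adjusted p = 0.48). Control females stood at 4.31, 4.40 and 5.03 and mutant females at 4.57, 4.94 and 4.37, with control female 3 as the highest of the 12. The mean of mutant males lay -0.01 ± 0.21 from that of control females, and that of control males lay -0.32 ± 0.21 from it, neither of which passed the test.

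Lef1, the transcription factor through which beta-catenin reaches DNA, had the largest difference in males. The control males stood at 0.50, 0.39 and 0.72. The mutant males stood at 1.04, 0.66 and 1.21. Mutant male 2 lay within the control range and the other 2 mutants lay above it. The difference was 0.44 ± 0.25 (SE, limma adjusted p = 0.45). It became a call only when limma weighted each array by its fit, at 0.61 with an adjusted p of 0.047, a setting under which 2854 features were called in males in place of 90. Control females stood at 0.82, 0.86 and 1.56 and mutant females at 1.19, 1.77 and 0.95, all 6 above the highest control male. The difference of control males from control females was -0.55 ± 0.25 (limma adjusted p = 0.46), with groups that did not overlap.

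Sp5, the feedback regulator whose promoter window held 2 motif matches, varied widely between embryos. Control males gave 1.35, 1.01 and 1.54. Mutant males gave 1.45, 1.69 and 2.05, where the lowest mutant lay below the highest control. The difference was 0.43 ± 0.34 (SE, limma adjusted p = 0.52). Control females ran from 1.32 to 2.37 and mutant females from 1.55 to 2.75, each range wider than that of either male group. Msx1, a homeobox factor induced by BMP signals, gave 1.29, 0.91 and 0.86 in the control males. The mutant males gave 1.41, 1.20 and 1.56, with 1 mutant inside the control range. Its differences were 0.37 ± 0.20 in males (limma adjusted p = 0.43) and 0.39 ± 0.20 in females (limma adjusted p = 0.48), and the 2 differed by -0.02 ± 0.28, so the values were close in the sexes although neither passed the test.

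Lgr5, a receptor for R-spondins, had the opposite sign to most of the 10 genes in both male comparisons. Control males stood at -0.48, -0.30 and -1.05, mutant males at -1.12, -0.92 and -0.98, control females at -1.20, -1.54 and -0.81, and mutant females at -1.45, -0.68 and -1.07. Control males 1 and 2 were the 2 highest arrays, and control male 3 lay among the other 3 groups. The difference of control males from control females was 0.58 ± 0.25 (SE, limma adjusted p = 0.46), the largest upward value among the 10 genes in that comparison, and the mutant effect in males was -0.40 ± 0.25 (limma adjusted p = 0.47). Neither passed the test.

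Fst, which encodes follistatin, had the clearest separation of a group. Control females stood at 0.83, 1.19 and 0.93. Control males stood at 0.34, -0.05 and -0.19, mutant females at -0.40, 0.55 and -0.51, and mutant males at -0.68, 0.37 and 0.59. All 3 control females therefore lay above all 9 other arrays, which held for 58 of the 19178 features or 0.302%, and the other 3 groups overlapped one another. In mutant males the mean was 0.06 ± 0.34 from that of control males (SE, limma adjusted p = 0.93), with an interval from -0.70 to 0.82. Against control females, Fst lay at -1.10 ± 0.34 in mutant females (unadjusted p = 0.0084, limma adjusted p = 0.36), at -0.95 ± 0.34 in control males (limma adjusted p = 0.43) and at -0.89 ± 0.34 in mutant males (limma adjusted p = 0.73). These 3 comparisons share the same 3 control females. None passed the test over all features, and the female difference was a call only with array weights, at -1.36 with an adjusted p of 0.016 and 5806 features called in place of 68. The difference between the mutant effects of the 2 sexes was 1.16 ± 0.49 (limma adjusted p = 1.00). Within slide 3 the mutant females lay 1.05 below the single control female, and within slide 2 mutant males 2 and 3 lay 0.53 below control females 1 and 2. With slide as a term in the fit, which links control males to control females only through mutant males, the control sex difference turned to 0.18 and the difference between the mutant effects was 0.34. Without control female 3 and mutant female 2 the female mutant effect was -1.46 (limma adjusted p = 0.19).

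Bmp2, a BMP ligand of the ovarian supporting lineage that acts upstream of Fst, gave -3.02, -3.09 and -3.44 in the control males. The mutant males gave -2.66, -3.26 and -2.43. Of the mutants 2 lay above all controls and mutant male 2 lay within the control range. The difference was 0.40 ± 0.30 (SE, limma adjusted p = 0.51). Control females ran from -3.13 to -2.29 and mutant females from -3.07 to -2.12. The mutant effect in females was -0.03 ± 0.30, and no comparison of Bmp2 passed the test.

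Nr0b1, an X-linked nuclear receptor whose extra copy can block testis development, was the member with the narrowest spread over the 12 arrays (SD 0.24). Control males gave 1.52, 1.17 and 1.36. Mutant males gave 1.25, 0.90 and 1.21, with overlapping ranges and a difference of -0.23 ± 0.20 (SE, limma adjusted p = 0.55). Its control sex difference was 0.11 ± 0.20. Runx1, a transcription factor of the fetal ovary's supporting cells, gave -1.37, -1.53 and -1.15 in the control males. The mutant males gave -1.03, -1.62 and -0.84 and held both the lowest and the highest of these 6 arrays, with a difference of 0.19 ± 0.30 (limma adjusted p = 0.74). The second Runx1 probe gave 0.26 ± 0.13 in males and -0.17 ± 0.13 in females when each probe was tested by itself, where the first gave 0.15 ± 0.30 in females, so the 2 probes differed in sign there and neither passed the test. On the second probe the 3 mutant males, from -2.68 to -2.63, lay apart from the 3 control males, from -3.05 to -2.78, which the first probe did not show.

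**Figure D2:**
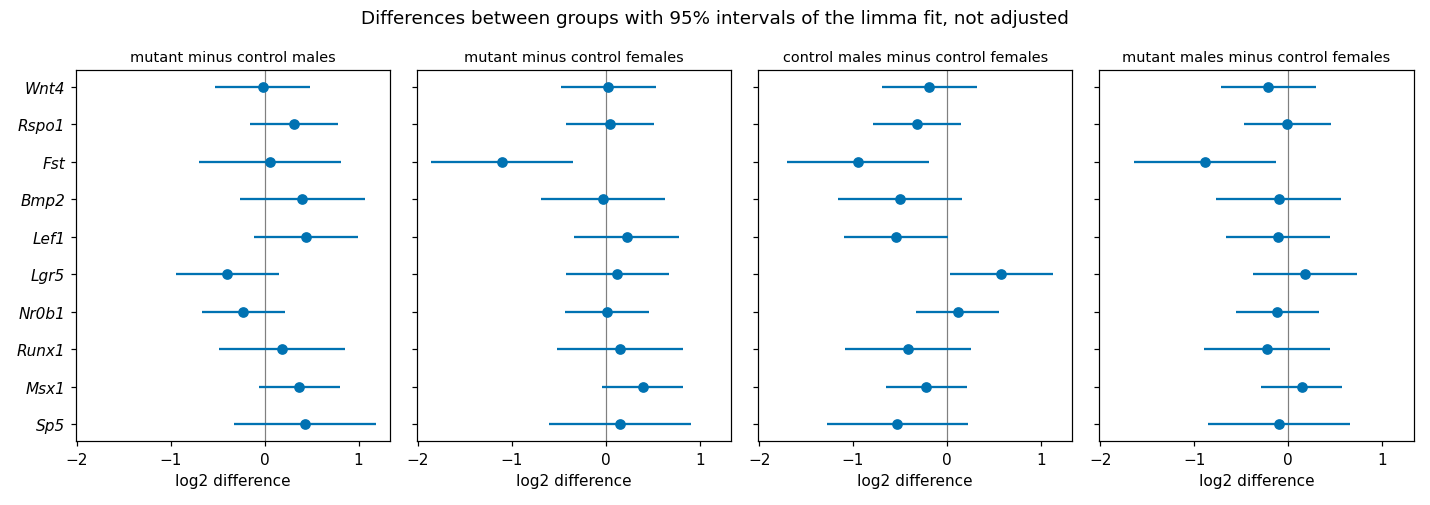
Points are log2 differences between group means for the 10 genes in 4 comparisons, and lines are the unadjusted 95% intervals of the limma fit. The intervals of 9 genes cross 0 in the female mutant comparison and all 10 do in the male one, and Fst lies between -0.89 and -1.10 in the 3 comparisons with control females.

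In females, none of the 10 genes passed the test for a mutant effect, and the direction of the set rested on single arrays. The 10 differences had a median of 0.08 against -0.05 over all features, and 8 were above 0. Without mutant female 2 only 1 was above 0, with a median of -0.18, and without control female 3 there were 9, with a median of 0.29. With slide as a term 1 was above 0 (median -0.35), with the gonadal somatic markers as a covariate 1 (median -0.23) and with array brightness as a covariate 2 (median -0.09). The value with slide sets the mutant females against control female 3 alone, the only control female on their slide. Of all features, 0.355% passed. Fst alone had an unadjusted limma p under 0.05, against 10.4% of all features, and Fst alone had groups that did not overlap, against 12.7%. Only Fst and Msx1 had a difference larger than its standard error.

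Between the sexes of the control embryos, 8 of the 10 genes had the lower mean in males, with Lgr5 and Nr0b1 as the exceptions. The differences of males from females had a median of -0.37 against 0.04 over all features. None of the 10 passed the test, beside 0.177% of all features, whereas Sox9 was 1.37 higher in control males (SE 0.18, limma adjusted p = 0.015). An unadjusted limma p under 0.05 was reached by Fst and Lgr5, 2 of 10 against 10.8% of all features. The groups did not overlap for Fst and Lef1, 2 of 10 against 15.9%. Without control female 3 and mutant female 2 the median was -0.13, and with slide as a term it was -0.06. A sex difference of these genes in control embryos was thus not detectable with these arrays.

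Mutant males were also set against control females, to place the mutant XY cells beside the XX cells they might come to resemble. The 10 differences of mutant males from control females had a median of -0.10 against 0.01 over all features, which was 0.12 without control female 3, 0.07 with slide as a term and 0.19 with array weights, and 9 of the 10 were within 1 standard error of 0, Fst being the exception. None passed the test, beside 0.402% of all features, and only for Fst did the groups not overlap, against 8.84%. Fst was also the 1 gene of 10 with an unadjusted limma p under 0.05, against 5.70%. Since no member differed by the test between control males and control females either, nearness of mutant males to control females here is no measure of a shift. In mutants, males and females had a median difference of -0.18 with 2 of 10 higher in males, which turned to 0.41 with 10 higher with slide as a term, to 0.10 with 7 higher with brightness as a covariate, to 0.07 with 7 higher with the gonadal somatic covariate, to 0.05 with 8 higher with array weights and to 0.10 with 6 higher without mutant female 2. The value with slide rests on control female 3, the only control female on slide 3. Of the members, 0 of 10 passed the test beside 0.130% of all features, 0 of 10 had an unadjusted limma p under 0.05 beside 11.5%, and in 0 of 10 were the groups apart, against 22.9%. For the difference between the mutant effects of the 2 sexes, 0 of 10 passed the test beside 0% of all features, with a median of 0.13, and Fst was the 1 gene of 10 with an unadjusted limma p under 0.05, against 3.66%. That count takes the brightest probe of each gene. When each probe was tested by itself, the second Runx1 probe gave 0.43 ± 0.18 for this difference and did not pass the test.

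By group mean of the brightest probe, mutant females were highest for 6 of the 10 genes, control females and control males for 2 each and mutant males for 0. Control males were lowest for 6, mutant males for 2, and control females and mutant females for 1 each. The second Runx1 probe had its highest mean in mutant males, -2.65, and its lowest in control males, -2.91. No pair of the groups compared differed by the test for any member, so these orders are a description.

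A pair of female embryos of different genotype stood high for most of these genes, and they were singled out after the values were seen. Control female 3 and mutant female 2, both on slide 3, were the 2 highest of the 12 arrays for 6 of the 10 genes, namely Wnt4, Rspo1, Bmp2, Lef1, Runx1 and Sp5, against 10.6% of all features. Both arrays were above the mean of the 12 for all 10 genes, against 31.6% of all features. Centred on its own mean over the arrays, the median of the 10 genes was 0.54 on control female 3 and 0.62 on mutant female 2, and between -0.35 and 0.23 on the other 10 arrays. Markers of the gonadal somatic cells moved with them. The summed signal of the 9 gonadal somatic markers was 63.3 and 71.7 times the 75th percentile on these arrays and between 38.5 and 55.3 on the others. The erythroid sum was 48.8 and 20.3, and the macrophage and leukocyte sum was 0.88 and 0.44 against a highest value of 2.72. Control male 1 and mutant male 1 had erythroid sums of 29.0 and 24.8 and macrophage and leukocyte sums of 0.69 and 1.20. The centred medians of the 10 genes on these 2 male arrays were -0.10 and 0.02. The part of cell composition in the levels of the 10 genes was not tested. Over the groups, the gonadal somatic list had a median difference of 0.24 in males and 0.28 in females for the mutant effect, and -0.24 between the control sexes, with 0 of 9 called in each. When the level of those markers was added to the fit as a covariate, the median mutant effect of the 10 genes in males was 0.06 in place of 0.25. The value of 0.25 uses neither array, whereas the covariate fit that gave 0.06 was made on all 12 arrays, these 2 included. Without both, which lie in different female groups, the female mutant effect had a median of 0.06 in place of 0.08, mutant males lay 0.10 above mutant females against -0.18 with them, and 0.12 above control females, against -0.10 with them. No member was called without them.

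**Figure D3:**
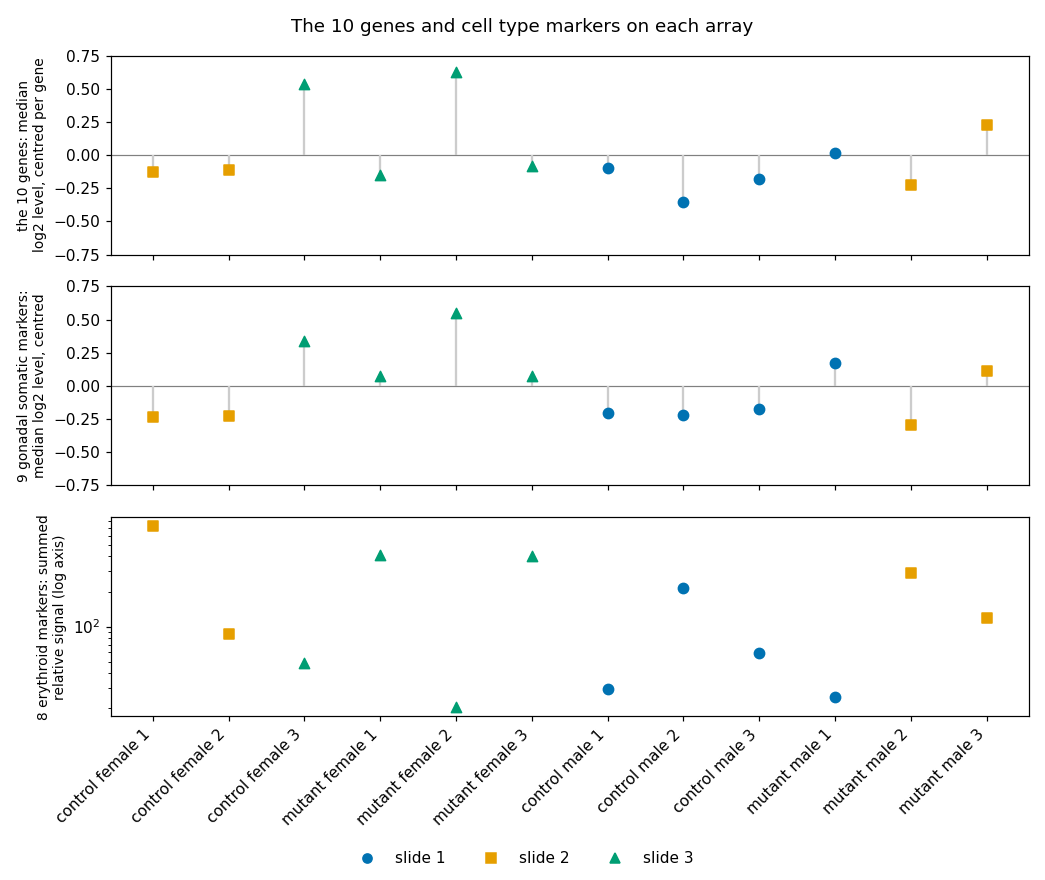
The 12 arrays are ordered by group; the upper panels show the median log2 level of the 10 genes and of 9 gonadal somatic markers, each gene centred on its mean over the arrays, and the lower panel shows the summed signal of 8 erythroid markers relative to the 75th percentile, on a log axis. Colour and shape mark the slide. Control female 3 and mutant female 2 are highest in both upper panels, and mutant female 2 has the lowest erythroid sum, 20.3.

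Within slides, the comparison could be made for parts of the groups only. On slide 1, mutant male 1 against the 3 control males had a median difference of 0.23 over the 10 genes, with Rspo1 at 0.53, Bmp2 at 0.53, Lef1 at 0.51 and Fst at -0.71. On slide 2, mutant males 2 and 3 against control females 1 and 2 had a median of 0.07. On slide 3, the mutant females against control female 3 had a median of -0.35, and 9 of the 10 genes were lower, all but Msx1. That last value rests on a single control array, the one on which these genes stood high.

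The other genes of the pathways gave no call in any of the comparisons. Of 10 Wnt ligands tested, all 10 had a higher mean in mutant than control males, with a median of 0.34; with normexp correction 7 did, with a median of 0.13. Of the 10, Wnt2 and Wnt7b were well above background on all mutant males but not on all control males. The list holds Wnt9b, the Wnt of the mesonephric duct, which gave -3.42, -2.88 and -2.85 in the control males. The mutant males gave -1.52, -0.71 and -1.25. The groups were apart by 1.89 ± 0.49 (SE, limma adjusted p = 0.18). Markers of mesonephric epithelium, among which Wnt9b is counted, had a median of 0.87 in males with 0 of 11 called, and their summed signal lay between 41.1 and 48.0 in control males and between 50.1 and 65.9 in mutant males. Their part in the Wnt9b value was not tested. Wnt5a, a ligand of non-canonical signalling, stood at 0.59 ± 0.22 and Wnt9a at 0.75 ± 0.28, with limma adjusted p of 0.36 and 0.37. Of 16 receptors and secretion factors tested, 11 had a higher mean in mutant males, with a median of 0.20; with normexp 10 did, with a median of 0.028. The co-receptor Lrp6 stood at 0.33 ± 0.11 (limma adjusted p = 0.31).

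The other R-spondin genes, the LGR receptors and the ubiquitin ligases that R-spondins remove from the cell surface had 4 genes in the test, none of them called. The receptor Lgr4 stood at 0.17 ± 0.19 in males, and the ligases Rnf43 at 0.49 ± 0.24 and Znrf3 at 0.22 ± 0.17. With normexp correction Rnf43 stood at 0.26 and Znrf3 at -0.0063. Rspo3, a paralogue of Rspo1, was not well above background on any control male and was so on all 3 mutant males, at -4.13 to -3.82. It entered the test through the mutant males alone, so that its higher mean there (0.75, limma adjusted p = 0.34) was favoured by the filter. With normexp background correction the Rspo3 difference was -0.035, so its direction depended on how the background was treated. Of 13 intracellular components, among them beta-catenin and its partners, 12 had a higher mean in mutant males, with a median of 0.42 that was 0.16 with normexp, 0.20 with brightness as a covariate and 0.19 with the gonadal somatic covariate, and Tcf7l2 stood at 0.42 ± 0.19 (limma adjusted p = 0.42). None of the 13 was called. Among them Pygo1 was well above background on all 3 mutant males but on 2 of the 3 control males, and its sign in males turned with normexp. In the control sexes the same list had a median of -0.38, which turned to 0.09 with array brightness as a covariate.

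Of 16 Wnt inhibitors, 10 had a higher mean in mutant males, with a median of 0.15, and with normexp 7 did, with a median of -0.04. The secreted Wnt binder Sfrp2 stood at 0.73 ± 0.24 and another, Wif1, at -0.67 ± 0.22, with limma adjusted p of 0.31 and 0.32, so the 2 had opposite signs. Of 7 Wnt target genes tested, 6 had a higher mean, with a median of 0.35 that was 0.20 with brightness as a covariate and 0.13 with the gonadal somatic covariate. Of these 7 genes 6 are also counted in the lists above, among them Rnf43, Znrf3 and Dkk1, so the list counts are not separate evidence. Myc stood at 0.52 ± 0.17 (limma adjusted p = 0.30). Axin2, a widely used readout of the pathway, was not well above background on any of the 12 arrays. The same held for Foxl2, Irx3 and Irx5, transcription factors of the differentiating ovary. Esr2, an oestrogen receptor, was well above background on 6 arrays but on no whole group, which left 3 of the 7 other ovary genes for the test, with a median of 0.31 and 0 called. Lrp5, Bcl9 and Ccnd1 had no probe that matched by accession.

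Of 27 activin and BMP pathway genes tested, 20 had a higher mean in mutant males, with a median of 0.13 that was 0.06 with normexp. Nog, which encodes noggin, an extracellular blocker of BMP ligands including BMP2, had the smallest p of all the pathway genes in males. The control males gave -4.38, -4.16 and -4.05, with 2 of the 3 well above background. The mutant males gave -3.18, -2.80 and -2.44. Control females gave -3.08, -2.91 and -1.97, and mutant females gave -2.15, -1.61 and -1.92. The 3 control males, all on slide 1, were thus the lowest of the 12 arrays. The share of all features with that order was not counted. Groups were apart in 20.4% of all features between mutant and control males, and in 15.9% between the control sexes. The mutant effect in males was 1.39 ± 0.28 (SE, limma adjusted p = 0.074), and the difference of control males from control females was -1.54 ± 0.28 (limma adjusted p = 0.088). Both missed the threshold in this fit. The male effect was a call with the replicate number as a block (adjusted p = 0.041), with array weights (0.00950), without control female 3 (0.024) and without both high female arrays (0.028). With normexp correction it was 0.17, and with slide as a term 1.01, with limma adjusted p of 0.53 and 0.19. The value with slide sets mutant male 1 alone against the control males. Acvr1c, an activin-type receptor, stood at -0.55 ± 0.18 in males (limma adjusted p = 0.31).

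**Figure D4:**
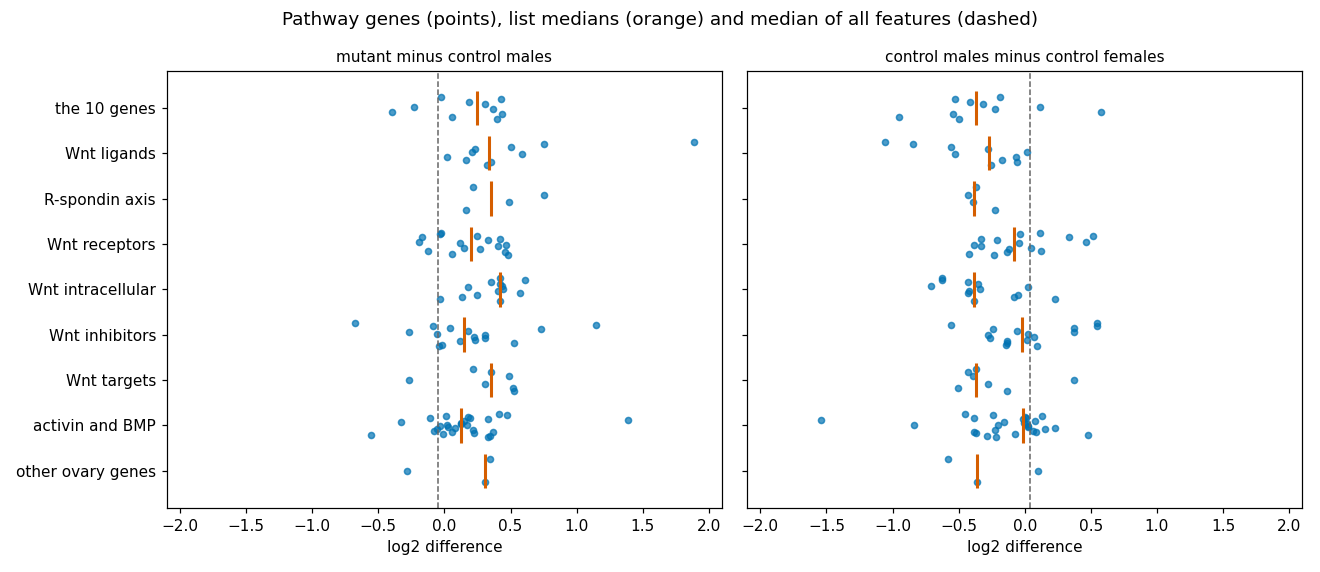
Points are the log2 differences of single genes in each list, for mutant minus control males and control males minus control females; orange lines are list medians and the dashed line is the median of all 19178 features. In males every list median lies above the dashed line at -0.05, from 0.13 for activin and BMP genes to 0.42 for intracellular Wnt components (with normexp, from -0.04 for Wnt inhibitors to 0.26 for Wnt targets against -0.08 for all features), and no point passed the test.

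For Fst, Wnt4 and Rspo1, the named genes with the most similar pattern were found by the root mean square difference of centred log2 levels over the 12 arrays, among 13264 genes. Nearest to Fst were Plin5 at 0.24, Wfdc1 at 0.28 and Plin1 at 0.29, where the SD of Fst over the arrays was 0.61. The group means of Plin5 were -1.87 in control females, -3.06 in mutant females, -2.50 in control males and -2.54 in mutant males, again with control females highest. Nearest to Wnt4 were Stk24 at 0.08, Coq8a at 0.11 and Tor4a at 0.11, and nearest to Rspo1 were Rasa4 at 0.07, Psen2 at 0.09 and Dpf1 at 0.09, where the SD of each member was 0.28. These 3 genes per member are a description of the arrays and share their slides and their brightness.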

How the data were processed

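Each of the 12 arrays held RNA of 1 embryo, labelled with Cy3 after linear amplification, per the labels' protocols. Per the file headers, the scans were read with Agilent Feature Extraction 10.5.1.1 on a design built on mm9; these deposited intensities are linear processed signals after background subtraction, with no scaling between arrays. From the deposited intensities, log2 minus the 75th percentile of all non-control spots of the array was computed, spots of a probe were averaged and outlier spots left out. Probes were named by accession through a RefSeq table of GRCm38.p6, which matched 27479 of 41174 probes. Probes entered the test when every array of some group showed them well above background. A gene was represented by its brightest such probe.

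A model of the 4 group means was fitted with limma 3.58.1 (R 4.3.3) to the 12 arrays together, with Benjamini-Hochberg adjustment over all 19178 features and calls at 0.05; the fit was tested on simulated data. The members, lists and named genes were chosen with earlier results of these data known. Named are all members, of each pathway list up to 3 genes with the smallest p in males and 2 between control sexes (values of some are left out), 2 markers of each cell type list described, and the 3 nearest patterns. Alternatives changed normalization, background correction (normexp, offset 50), filters, probes, arrays in the fit, weights, slide, replicate number, brightness and each left-out array; the gonadal somatic covariate and the fit without control female 3 and mutant female 2 were added after the data were seen. Precision is limited by 3 arrays a group. Figures were drawn with matplotlib 3.10.9.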

Additional observations from a re-analysis of the deposited data

How the results depend on the processing

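Under 24 alternatives, 22 of them planned, no member was called except Lef1 in males and Fst in females with array weights, 1 call each. Of 1430 member values under alternatives, 2 were called and 157 changed sign. With slide as a block the median of the 10 genes turned to -0.35 for the mutant effect in females and to 0.41 for mutant males against mutant females; between mutant sexes 8 genes turned, to 0.71 for Sp5, 0.52 for Rspo1, 0.46 for Bmp2, 0.37 for Wnt4, 0.36 for Lef1, 0.31 for Runx1, 0.13 for Msx1 and 0.039 for Nr0b1. The other single values named are those larger than their standard error before they turned. With slide they were 0.18 for Fst, 0.17 for Sp5, 0.30 for Rnf43, 0.13 for Sostdc1 and -0.033 for Sfrp4 between control sexes. With array brightness as a covariate, the mutant sex difference was 0.10 for Wnt4, 0.14 for Lef1 and 0.11 for Runx1, and the control one 0.11 for Fzd1, 0.025 for Fzd4, -0.053 for Ror2 and 0.10 for Smad6. With array weights, Wnt4 and Runx1 stood at 0.022 and 0.000858 between mutant sexes, and with the gonadal somatic covariate Wnt4 stood at 0.015. With normexp, the control sex difference was 0.028 for Bmp2, 0.025 for Wnt5a, 0.28 for Rspo3, 0.14 for Dvl3 and 0.10 for Pygo1, and the male mutant effect was -0.035 for Rspo3, -0.0063 for Znrf3 and -0.10 for Pygo1. With slide as a term, the values between mutant sexes and for the female mutant effect rest on control female 3, the only control female on slide 3. Those between control sexes rest on mutant male 1, the only mutant male on slide 1. The cause of the turns was otherwise not tested.

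The replicate number as a block is balanced over the groups and cannot move a difference, so the median in males was 0.25 by construction; it changed no call of a member, with 0 called, but made Nog a call in males (1.39, limma adjusted p = 0.041) and between control sexes (-1.54, adjusted p = 0.039). Same-numbered arrays correlated over 0.1 in 6 of 18 pairs, from -0.53 to 0.43, and 3 of 12 arrays correlated best with their own number. With 3 arrays a group, these correlations cannot decide whether the numbers pair embryos, and the sources used here do not say. Over all alternatives the median of the 10 genes in males ran from 0.05 with normexp to 0.42, and between control sexes from -0.47 to -0.06. With 3 embryos a group, the standard errors of the 10 genes between groups were 0.20 to 0.34 on the log2 scale, which limits what could be detected.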
